A study of Mus musculus with 6 samples.

Results

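The 10 genes described here are effector products of alternative macrophage activation, and all were found among the 20649 genes of a single-cell RNA-seq matrix of 9235 barcodes. They were chosen by name, as genes known from earlier work to be driven by IL-4 and Stat6 in mouse macrophages, and no threshold on their values in these cells was used. Earlier results of these data were known when the list was chosen. The counts of members below, set beside shares of all genes, are therefore not those of an independent list. They are the secreted or secretory-granule products Retnla, Chil3 and Rnase2a, the lectin receptors Mgl2 and Clec10a, the chemokines Ccl17, Ccl22 and Ccl24, the checkpoint ligand Pdcd1lg2 and the matrix protein Fn1. Levels were read in macrophage barcodes, defined as having at least 3 UMIs (unique molecular identifiers, each counting 1 captured transcript) of Csf1r and Adgre1 together and no UMI of Cd3e, Ncr1 or Cd79a, which gave 4650 barcodes. Neutrophil (S100a9 at 5 or more UMIs, 1049 barcodes), dendritic (a Flt3 UMI, 344 barcodes) and basophil (an Mcpt8 UMI, 90 barcodes) barcodes served for comparison.

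The cells were CD45+ leukocytes enriched from CT26 colon carcinomas grown under the skin of BALB/c mice. Tumors were injected 3 times, every other day, with exosomes loaded with an antisense oligonucleotide against Stat6 (exoASO-STAT6, 3 tumors) or with a scrambled oligonucleotide (exoASO-Scramble, 3 tumors), and were taken 24 hours after the last dose. All mice thus carried the same tumor line and received exosomes. Every barcode ends in a number from 3 to 8 that matches no sample label, so the matrix was treated as 1 pooled sample. The 6 suffixes are called libraries below, which is an assumption that no label states, and their treatment is unknown. No comparison between the treatments was made, and the intervals below cover counting error only. No test was run. As a rule of size, a member was called between states at a pooled fold of 2 with the same direction, of any size, in at least 5 of the 6 suffixes.

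When IL-4 or IL-13 binds the IL-4 receptor on a macrophage, Janus kinases phosphorylate Stat6, which dimerizes, enters the nucleus and turns on a set of genes together with factors such as Klf4, Pparg and Irf4. The products act in wound repair, in defence against worms and in allergic inflammation, where several of them recruit T cells or eosinophils. In tumors the same genes are used as markers of macrophages that favor tumor growth, often called M2.

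The gate was checked on 6 macrophage markers that it did not use. Summed over them, macrophage barcodes held 5753 counts per 1000000 UMIs (CPM), against 4751 CPM in neutrophil, 3247 CPM in dendritic and 2009.7 CPM in basophil barcodes, 196 CPM in NK barcodes (Ncr1 at 2 or more UMIs and none of Csf1r or Adgre1) and 276 CPM in T barcodes (Cd3e at 2 or more UMIs with the same exclusion). The neutrophil rule thus did not separate its barcodes from macrophages on these markers. The suffixes held between 459 and 1088 macrophage barcodes, with 9448 UMIs per barcode at the median in suffix 5 and 16034 in suffix 4. Classes overlapped, since 566 of the neutrophil and 117 of the dendritic barcodes also passed the macrophage gate, and 25.2% of macrophage barcodes carried a UMI of some other lymphocyte marker. Only 16 of 9219 barcode sequences occurred in more than 1 suffix.

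Stat6 dimers are known to bind palindromes made of TTC, any 4 bases and GAA, whereas other Stat proteins favor a spacer of 3 bases. Because the members are named for their control by Stat6, the stretch around 1 match in each promoter that held any is shown, with the match in capitals. RefSeq promoters (250 bases before to 50 after the annotated start, GRCm38.p6) were at hand for 7 of the 10 members and not for Clec10a, Ccl24 and Fn1. The form with 4 bases, which reads the same on both strands, occurred in 3 of these 7, against 6.95% of 32851 promoters. The form with 3 bases, which also reads the same on both strands, occurred in 2 of the 7, against 8.30%. Neither form was in the Mgl2, Ccl22 or Rnase2a window. The matches describe these letters and do not show binding. The Retnla match lies 145 bases before the RefSeq start, which is 87 bases before the GENCODE start printed below, while for the others the starts coincide. The match of Pdcd1lg2 lies 82 bases before its start, that of Ccl17 154 bases and that of Chil3 172 bases. They are given in the direction of the gene, at chr16:48842419-48842518 (plus strand), chr19:29410792-29410891 (plus), chr8:94810254-94810353 (plus) and chr3:106167683-106167781 (minus). Ccl17 alone held both forms, its TTCTTTGAA (stretch not shown) beginning 99 bases before the start, and the matches did not overlap.
Retnla: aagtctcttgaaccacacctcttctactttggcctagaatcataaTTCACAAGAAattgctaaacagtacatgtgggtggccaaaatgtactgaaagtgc
Pdcd1lg2: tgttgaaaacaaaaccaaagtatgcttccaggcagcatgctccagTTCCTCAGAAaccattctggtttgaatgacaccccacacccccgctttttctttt
Ccl17: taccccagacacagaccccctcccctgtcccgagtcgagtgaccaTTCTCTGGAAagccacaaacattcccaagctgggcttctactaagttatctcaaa
Chil3: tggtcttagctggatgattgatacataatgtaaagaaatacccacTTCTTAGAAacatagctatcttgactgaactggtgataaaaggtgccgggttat

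The first question was how each member spread over the libraries. Retnla (chr16:48842551-48844461), which encodes the secreted resistin-like protein also called Fizz1, was at 31.5, 17.8, 820.1, 32.7, 0.316 and 2.35 CPM in the macrophage barcodes of suffixes 3 to 8. Suffix 5 held 89.8% of its macrophage UMIs and lay 25.1-fold above the next suffix. Suffix 7, with 4 UMIs in 815 barcodes, was at the other end, and suffix 8 was also nearly without the transcript. Rnase2a (chr14:51255262-51256112), a member of the eosinophil-associated ribonuclease family, was ordered over the 6 suffixes by CPM as Retnla was. Its levels were 9.85, 4.38, 172, 47.1, 1.19 and 2.40 CPM, and 68.8% of its UMIs came from suffix 5. For Retnla, suffixes 3 and 6 could not be told apart within counting error. Without suffix 5, Retnla fell from 118 CPM over all macrophage barcodes to 13.8 CPM and Rnase2a from 32.2 to 11.5 CPM.

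The lectins of the galactose-type family followed a milder gradient with the same top. Mgl2 (chr11:70130329-70137550) was at 54.9, 24.2, 153, 17.8, 9.25 and 17.9 CPM in suffixes 3 to 8, and 51.5% of its UMIs were from suffix 5. Clec10a (chr11:70156197-70170834), which lies beside Mgl2, was at 39.8, 19.4, 83.1, 32.9, 19 and 25.8 CPM. The values of Clec10a in suffixes 4 and 7 could not be told apart within counting error, and its range was the smallest among the lectins and the secreted products. Of the 31-base words of Mgl2 transcripts, 22.6% occur in Clec10a, but none of those in the last 500 bases, where a 3′ assay reads.

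Chil3, Ccl24 and Pdcd1lg2 were highest in another library. Chil3 (chr3:106147554-106167564), the secreted chitinase-like protein Ym1, was at 12.3, 14.2, 130.5, 362, 96.6 and 32.6 CPM, highest in suffix 6 and lowest in suffix 3. Ccl24 (chr5:135569937-135573049), eotaxin-2, a ligand of the eosinophil receptor Ccr3, was at 71.8, 45.6, 258, 482, 76.3 and 74.7 CPM, with suffix 6 above suffix 5. Pdcd1lg2 (chr19:29410919-29471161), the PD-1 ligand PD-L2, was at 28.5, 21.5, 38.7, 125, 29.4 and 22.0 CPM, highest in suffix 6 and next in suffix 5 (34.8 to 42.9 CPM). The macrophage barcodes of suffix 6 also had the highest summed neutrophil markers of the 6 suffixes (1792 CPM, against 256 to 1215 CPM) and the highest monocyte markers (2727 CPM, against 818 to 1666 CPM), and the part of these in the levels was not tested. For Chil3, Chil4 is the paralog most likely to share reads, with 31.1% of 31-base words in common and 22.3% of those in the last 500 bases, so that reads of either could be counted as the other. As counted, Chil4 had 2 UMIs in all barcodes.

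The remaining chemokines and the matrix protein were again highest in suffix 5. Ccl17 (chr8:94810453-94812036), a ligand of the T cell receptor Ccr4, was at 6.0, 5.27, 14.8, 0.348, 0.237 and 0.481 CPM, with between 3 and 9 UMIs in each of suffixes 6, 7 and 8. Ccl22 (chr8:94745590-94751699), the other Ccr4 ligand, was at 2.0, 13.1, 14.4, 1.83, 1.19 and 5.13 CPM, and the intervals of suffixes 4 (11.2 to 15.1 CPM) and 5 (12.1 to 17.1 CPM) overlapped. Fn1 (chr1:71585520-71653200), fibronectin, was at 242, 295, 676, 307, 226 and 221 CPM. Apart from suffix 5 its values lay within a narrow band.

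**Figure D1:**
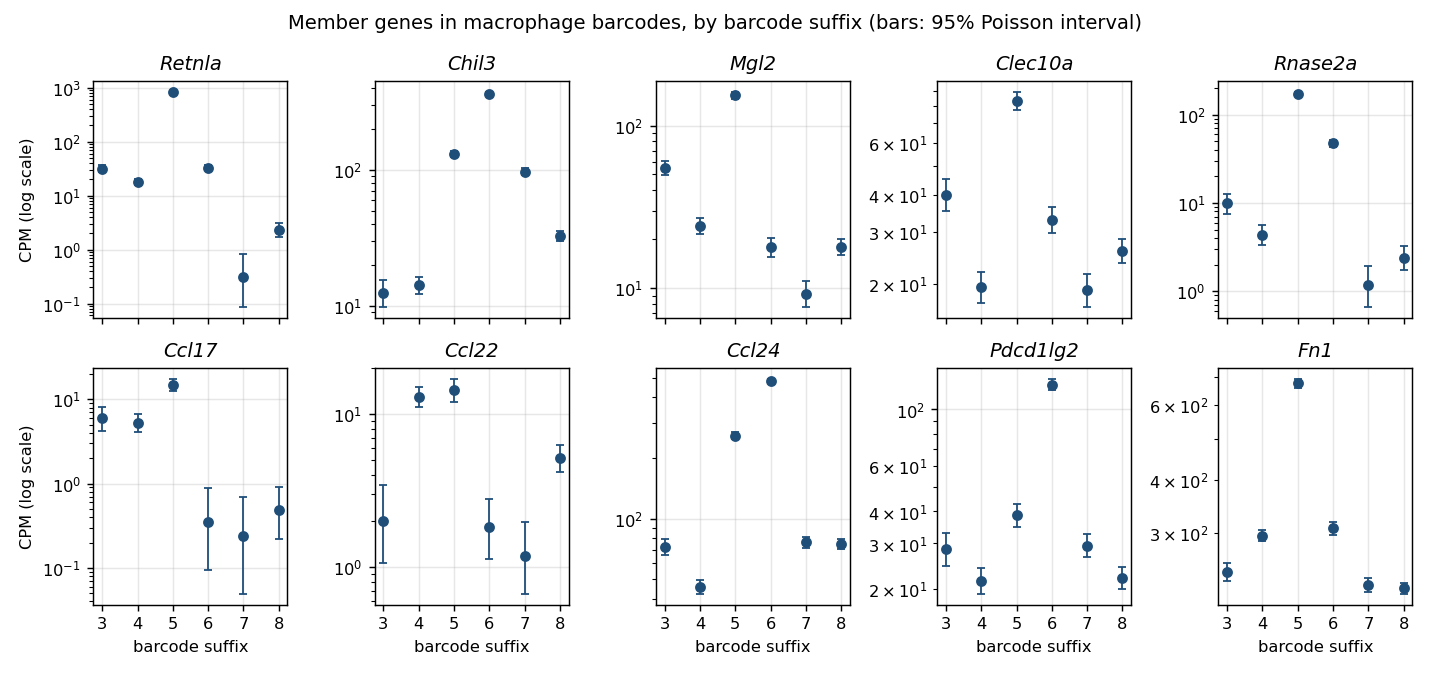
CPM in macrophage barcodes (vertical axis, log scale) for each member, by barcode suffix (horizontal axis), with exact Poisson intervals at 95%. Of the 10 members, 7 are highest in suffix 5 and 3 (Chil3, Ccl24 and Pdcd1lg2) in suffix 6.

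In 8 of the 10 members, 1 suffix lay at least 2-fold above the next, the exceptions being Ccl22 at 1.10-fold and Ccl24 at 1.87-fold. The same held for 2.78% of 13307 genes with at least 20 macrophage UMIs. The top library was suffix 5 for 7 members and suffix 6 for 3, whereas 36.3% of the tested genes were highest in suffix 5 and 20.1% in suffix 6. The members did not share 1 order of libraries, although Retnla with Rnase2a and Mgl2 with Ccl17 each had the same one by CPM. Parts of these orders were not resolved within counting error. Intervals overlapped in suffixes 3 and 6 for Retnla (27.4 to 36.2 and 29.5 to 36.2 CPM) and in suffixes 6 and 8 for Mgl2 and Ccl17. The count of 8 became 6 without suffix 5 and 7 without suffix 6. It was 6 in Cd163-negative barcodes alone, where Clec10a and Rnase2a were not called. The names changed as well, and only Mgl2 and Rnase2a were called whichever suffix was left out. Only Mgl2 was called under each of the 12 alternatives. Without suffix 5, Retnla was at 32.7 CPM in suffix 6 against 31.5 CPM in suffix 3, and was not called. The share of macrophage barcodes with a Cd163 UMI was itself uneven, 20.3% in suffix 5 against 2.82% in suffix 7, and 75.3% of macrophage barcodes in suffix 6 had a Ly6c2 UMI against 29.6% in suffix 3. Summed markers of resident macrophages, Cd163 among them, were highest in suffix 5 (704 CPM, against 271 to 503 CPM). The part of these differences in the members' spread was not tested beyond the Cd163 split.

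Stat6 itself was at 65.5, 60.05, 75.6, 54.7, 44.8 and 54.1 CPM in suffixes 3 to 8. Its highest value, in suffix 5, was 1.15-fold above the next.

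Many members were carried by few cells. The 46 macrophage barcodes with the most Retnla UMIs, 1% of all, held 72.4% of them, with up to 444 in 1 barcode. The corresponding share was 62.3% for Rnase2a, 48.0% for Chil3, 44.9% for Mgl2, 37.7% for Ccl24 and 93.0% for Ccl22. It was 23.5% for Clec10a, 18.8% for Pdcd1lg2 and 16.6% for Fn1, against 6.39% for Stat6. Ccl17 was found in 0.882% of macrophage barcodes only. After each barcode was thinned to 1000 UMIs, so that depths were equal, Fn1 was detected in 18.6% of macrophage barcodes (95% binomial interval 17.5 to 19.7%), Ccl24 in 8.99%, Chil3 in 5.72% and Retnla in 3.18%. Most macrophages thus had no detectable transcript of a given member at this depth.

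Free RNA in droplets sets a floor for such shares. In suffix 5, 14.7% of thinned macrophage barcodes (12.4 to 17.3%) had a Retnla UMI, against 1 of 38 NK or T barcodes (2.63%, 0.0666 to 13.8%), with medians of 9448 and 3015 UMIs before thinning. Without thinning the shares were 26.2% and 7.69%. In suffix 6, Chil3 was found in 13.2% of macrophage barcodes and in 0.980% of 102 NK or T barcodes, and Ccl24 in 16.5% and 1.96%. NK and T barcodes gave no such background for Pdcd1lg2, since they carried it themselves.

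The next question was which members shared cells. Within suffix 5, the macrophage barcodes were grouped by their Retnla UMIs, and the levels of the other members were summed in each group. From the 612 barcodes without Retnla to the 78 with 20 or more UMIs, Rnase2a went from 27.4 to 1174 CPM, Clec10a from 43.1 to 380.5 CPM and Ccl24 from 144 to 885 CPM. Cd163, the haemoglobin scavenger receptor, went from 41.9 to 415 CPM and Ear2, a further ribonuclease, from 9.71 to 194 CPM along the same series. Mgl2 was less different, at 134 and 262 CPM, and Fn1 likewise, at 623 and 1009.9 CPM. Ccl17 and Ccl22 were found in too few barcodes to compare. Ccl17 was in 7 of the 612 barcodes without Retnla, 5 of the 97 with 1 to 4 UMIs, none of the 42 with 5 to 19 and 1 of the 78 with 20 or more, and up to 52 of its UMIs were in 1 barcode. Ccl22 was in 11, 5, 0 and 0 of them. Of the other members, 4 were highest in the group with 5 to 19 Retnla UMIs. With 5 to 19 Retnla UMIs against 20 or more, Chil3 was at 708 and 187 CPM, Ccl24 at 1040 and 885 CPM, Fn1 at 1384 and 1009.9 CPM and Pdcd1lg2 at 93.3 and 54.7 CPM. The intervals of Pdcd1lg2 overlapped (65.4 to 129 and 40.2 to 72.7 CPM). In the group with 5 to 19, 1 of the 42 barcodes held 197 of the 401 Ccl24 UMIs, so the place of Ccl24 may rest on that barcode. Stat6 was at 76.2 CPM without Retnla and at 67.5 CPM (51.2 to 87.2 CPM) in the richest group. The rich group had a lower median depth, 7384 against 9802 UMIs.

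Barcodes of suffix 6 were grouped by Chil3 in the same way. From the 454 barcodes without Chil3 to the 46 with 20 or more UMIs, Ccl24 went from 236 to 1224 CPM, Fn1 from 230.1 to 632 CPM and Pdcd1lg2 from 96.3 to 206 CPM. Retnla went from 10.7 to 178 CPM, but it was in 7 and 5 barcodes of these groups only, with 67 of 79 and 91 of 162 UMIs in 1 barcode. Rnase2a was at 49.1, 35.4, 76.7 and 19.8 CPM and Clec10a at 33.1, 42.1, 25.9 and 19.8 CPM along the 4 groups, without a common direction. By barcodes, Clec10a was in 14 of the 46 with the most Chil3 and in 113 of the 454 without it, and Rnase2a in 6 and 39, with 18 UMIs of each in the former group. Mgl2 was uneven, at 22.5, 3.39, 25.9 and 2.20 CPM along the series. Thus Ccl24 was higher in the richest group of both genes than in the group without, and so were Fn1 and Pdcd1lg2. For Fn1 in suffix 5 this was no steady rise. With 1 to 4 Retnla UMIs it was at 505 CPM (465 to 548), below the 623 CPM without Retnla. By barcodes, Fn1 was in 51 of the 78 richest in Retnla and in 370 of the 612 without it. In suffix 5, Pdcd1lg2 was at 29.0 CPM without Retnla and at 54.7 CPM with 20 or more Retnla UMIs.

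**Figure D2:**
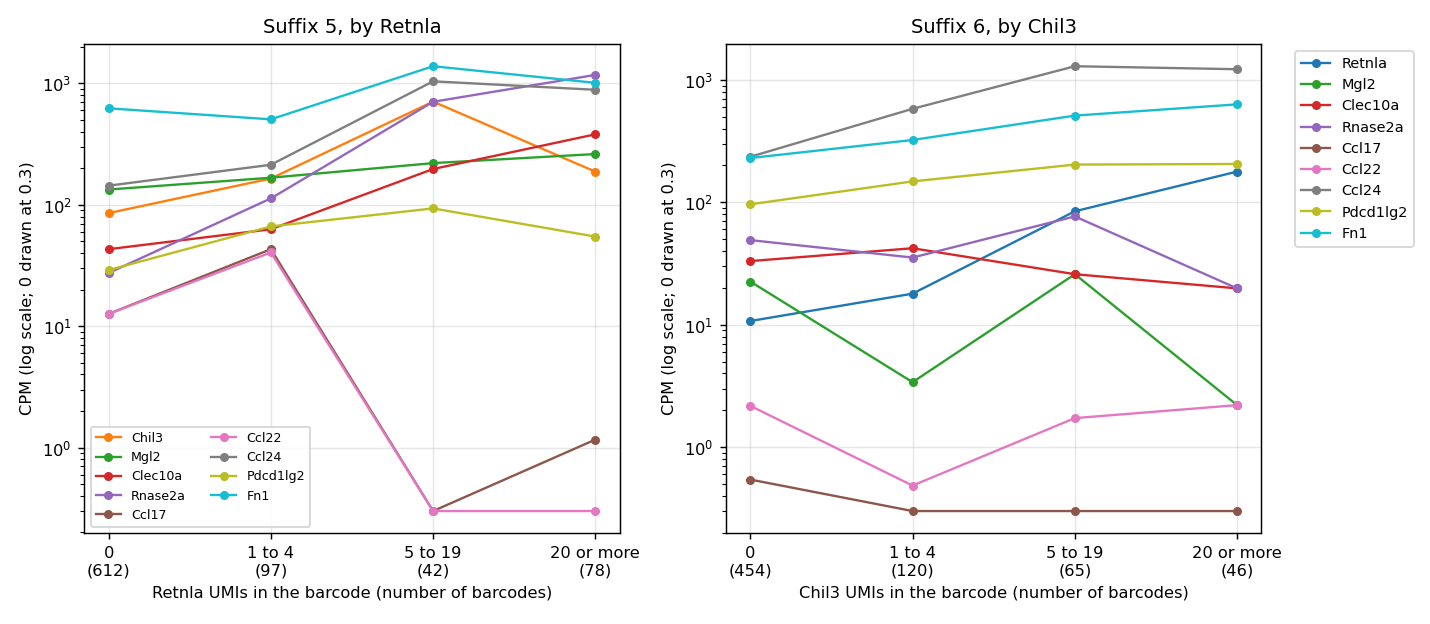
CPM of the other members (vertical axis, log scale, 0 drawn at 0.3) in macrophage barcodes grouped by Retnla UMIs in suffix 5 (left) and by Chil3 UMIs in suffix 6 (right), with the number of barcodes in parentheses. Rnase2a climbs from 27.4 to 1174 CPM on the left, where the points of Ccl17 and Ccl22 rest on 13 and 16 barcodes in all, and Ccl24 is higher on the right side of both panels than on the left.

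Co-detection was then counted for all 45 pairs of members in macrophage barcodes thinned to 1000 UMIs, and set against the number expected if the genes fell independently within each suffix. The pair was called where the observed number was at least 2-fold above the expected and the lower Poisson bound also exceeded it. This held for 14 of 45 pairs, against 1.02% of 73412 pairs of a member with any gene found in at least 1% of barcodes. The median ratio over the 45 pairs was 1.57. Retnla and Rnase2a shared 54 barcodes against 11.7 expected (ratio 4.61, 3.46 to 6.02), and in suffix 5 alone 51 against 11.3. Retnla and Clec10a shared 39 against 9.81 (3.98, 2.83 to 5.44), Retnla and Ccl24 58 against 21.0 (2.77), Rnase2a and Ccl24 49 against 15.3 (3.20), and Clec10a and Rnase2a 22 against 6.87 (3.20). These 4 genes therefore formed a block in which only Clec10a with Ccl24, at 1.53, was not called.

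Chil3 was called with Retnla (25 against 10.4, ratio 2.40) and with Ccl24 (64 against 30.5, ratio 2.10). With Retnla it was not called at 2000 UMIs (1.78), at 3000 UMIs (1.72) or with another random draw (1.67). With Ccl24 it was not called at 3000 UMIs (1.999). It was not found more often with Clec10a (8 against 10.9) or Mgl2 (2 against 6.09, ratio 0.328, 0.0398 to 1.19). Mgl2 was called with Rnase2a (14 against 6.05) and not with Retnla (15 against 9.15) or with its neighbour Clec10a (10 against 5.81), but these calls turned with the thinning. With another random draw Mgl2 with Rnase2a was at 1.86 and not called, while Retnla with Mgl2 (2.25) and Mgl2 with Clec10a were. At 3000 UMIs Mgl2 with Rnase2a was at 1.94 and Retnla with Mgl2 at 2.06. Ccl24 and Pdcd1lg2 were called with each other, at 42 against 20.8. Fn1, the member detected most often, was called with none, although its 85 barcodes shared with Chil3 against 50.6 gave a ratio of 1.68 (1.34 to 2.08).

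Pairs with a Ccr4 ligand were called on few barcodes. Mgl2 and Ccl17 shared 5 barcodes against 0.618 expected (8.09, 2.63 to 18.9), Mgl2 and Ccl22 3 against 0.330, Ccl17 and Ccl22 2 against 0.0465, Ccl17 and Pdcd1lg2 3 against 0.395, and Ccl22 and Pdcd1lg2 5 against 0.465. These calls rest on at most 5 barcodes each. The macrophage gate held 117 barcodes that also passed as dendritic, and where barcodes of another class were removed, Ccl17 was no longer called with Ccl22 or Pdcd1lg2. No thinned barcode held Ccl17 or Ccl22 together with Retnla, Chil3 or Clec10a, but the expected numbers were at most 1.09, so that such an absence was not detectable at this depth. In all, 19 of the 45 pairs had an expected count under 5.

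**Figure D3:**
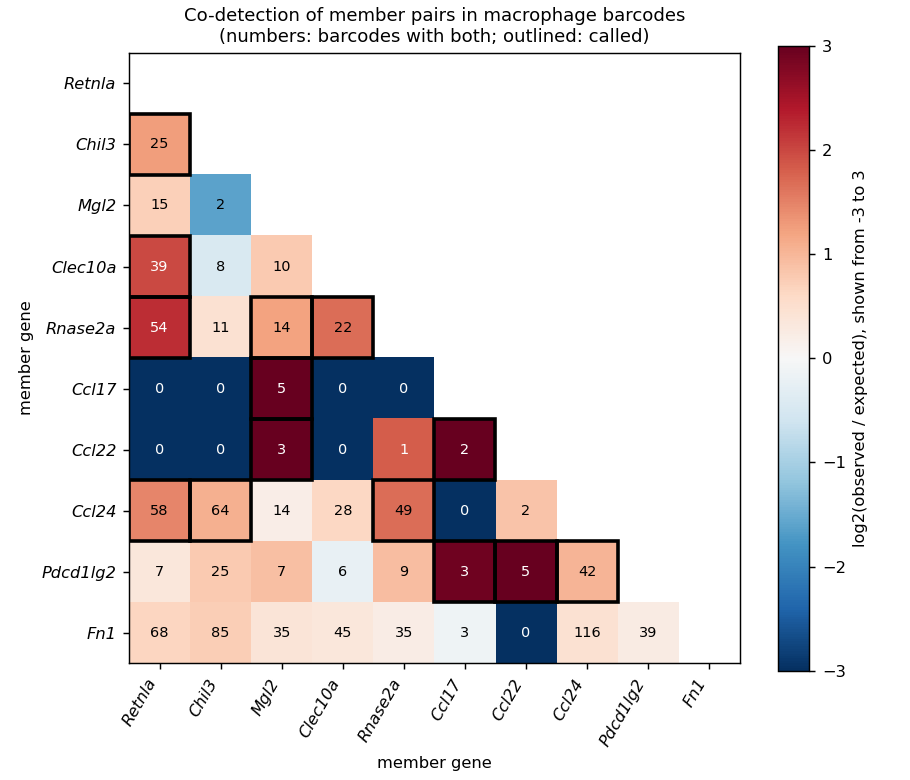
Co-detection of the 45 member pairs in thinned macrophage barcodes, both axes listing the members, with color for log2 of observed over expected (limited to 8-fold either way), numbers for the barcodes holding both, and outlines for the 14 called pairs. Retnla, Rnase2a, Clec10a and Ccl24 share barcodes, Fn1 has no outlined pair, and the deepest blue cells are pairs with 0 barcodes and small expected numbers.

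Counted per barcode, 65.6% of macrophage barcodes had none of the members after thinning, against 61.0% expected from independence within suffixes. Barcodes with 4 or more members numbered 47 against 7.54 expected, and 39 of them were in suffix 5. The highest number in a barcode was 6.

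Some of the sharing went with Cd163. When the expected number was computed within suffix and Cd163 status, 9 of 45 pairs were called and the ratio of Retnla with Rnase2a was 2.12, that of Retnla with Clec10a 2.30 and that of Clec10a with Rnase2a 1.74. Mgl2 with Ccl17 stayed at 8.17. Only Retnla with Clec10a, Retnla with Rnase2a and Mgl2 with Ccl17 were called under each of the 14 alternatives tried. With another random draw in the thinning, 12 pairs were called, and the ratio of Retnla with Chil3 was 1.67. Above-expectation sharing in every suffix was seen for 3 called pairs, all with Ccl24: those with Retnla, Chil3 and Pdcd1lg2. For Retnla this included 1 shared barcode in each of suffixes 7 and 8. Within suffix and Cd163 status, none of the 4 called pairs with Ccl24 stayed called, at 1.87 with Retnla, 1.94 with Chil3, 1.996 with Rnase2a and 1.75 with Pdcd1lg2. Retnla with Rnase2a (7.97), with Clec10a (6.01) and with Chil3 (5.08) remained called without suffix 5. Few barcodes stood behind these ratios, as Retnla was in 6, 8, 9, 1 and 2 thinned barcodes of suffixes 3, 4, 6, 7 and 8. For Retnla with Rnase2a, suffix 5 held 51 of the 54 shared barcodes. Without that suffix Retnla with Mgl2, Retnla with Fn1 and Mgl2 with Clec10a were called as well. Mgl2 with Rnase2a was 1.92, and not called, without suffix 3, and was 12.2, and called, without suffix 5. Ccl24 with Pdcd1lg2 lay close to the threshold and was not called without suffix 3 (1.998), suffix 7 (1.93) or suffix 8 (1.86). Chil3 with Pdcd1lg2 was called without suffix 6. Of the pairs with a Ccr4 ligand, Ccl22 with Pdcd1lg2 was, like Mgl2 with Ccl17 (16.7 without suffix 5), called whichever suffix was left out. Ccl17 with Pdcd1lg2 was at 0 without suffix 5, Ccl17 with Ccl22 was not called without suffix 4 (38.7) or suffix 5 (33.8), where the lower bound fell under the expected number, and the same held for Mgl2 with Ccl22 without suffix 4 (7.91) or suffix 8 (6.61). Another random draw put Mgl2 with Ccl22 at 1.16, and with it neither ligand was called with Pdcd1lg2.

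Among 5534 genes other than the members found in at least 2% of thinned macrophage barcodes, those with the highest co-detection ratio with Retnla were Ednrb, an endothelin receptor (37 barcodes against 7.22 expected, ratio 5.13), Cd163 (47 against 10.7, ratio 4.38) and Fam43a (3.56). For Chil3 they were the interferon-inducible gene Ifi205 (2.92), Ifitm6 (40 against 15.0, ratio 2.66) and Rasgrp2 (2.65). The lists share no gene in their first 3 places. The monocyte proteoglycan Vcan followed for Chil3, at 48 against 19.1 barcodes (2.51).

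Members were next compared between macrophage states, each set by a UMI of 1 gene that is not a member. C1qa, a complement subunit of mature tissue macrophages, was present in 3495 macrophage barcodes, with a median depth of 15303 UMIs against 9406 in the others. No member was higher in C1qa-positive barcodes (0 of 10, against 9.75% of all genes tested), and 5 of 10 were lower, against 2.18%. Chil3 was lower in each suffix, for example at 116 against 810.4 CPM in suffix 6 and at 2.99 against 77.1 CPM in suffix 3, with a pooled fold of 0.111 (0.106 to 0.117). Ccl24 was likewise lower in each suffix, at 0.185-fold pooled and between 0.227-fold and 0.429-fold within suffixes. Fn1 (0.481-fold), Pdcd1lg2 (0.426-fold) and Ccl17 (0.241-fold, lower in 5 of 6 suffixes) were the others. For Pdcd1lg2 the pooled fold was below every fold within a suffix (0.489 to 0.944), and it was not called by their median. Clec10a (1.14-fold) and Retnla (0.876-fold) differed little when pooled. The median fold was 0.456 for the members and 1.09 over the tested genes. Fn1 was at 0.502-fold without suffix 4 and at 0.511-fold without suffix 5, and Pdcd1lg2 at 0.615-fold without suffix 6. Mgl2 (0.475-fold without suffix 6), Ccl22 (0.231-fold without suffix 4, 0.315-fold without suffix 6) and Retnla (0.254-fold without suffix 5) were called lower with those libraries left out. Within 5000 to 20000 UMIs per barcode, 3 members were lower (Chil3, Ccl22 and Ccl24). Chil3 and Ccl24, the members called lower under each of the 15 alternatives, were at 0.182-fold and 0.292-fold without suffix 6, and Ccl17 was at 0.375-fold without suffix 5.

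Ly6c2 marks monocytes recently come from the blood and was present in 2167 macrophage barcodes. It was not confined to such cells, at 431 CPM in NK barcodes against 257 CPM in macrophage barcodes. Of the members, 3 of 10 were higher in Ly6c2-positive barcodes and 3 of 10 lower, against 2.95% of the genes tested in either direction. Chil3 was higher in each suffix, at 23.8, 30.9, 217, 463, 197 and 62.7 CPM in positive barcodes of suffixes 3 to 8 and at 7.60, 4.36, 90.5, 54.0, 13.6 and 7.54 CPM in negative ones, a pooled fold of 8.07 (7.55 to 8.65, counting error only). It was 16.5 without suffix 5 and 4.64 without suffix 6. Ccl24 (2.45-fold) and Pdcd1lg2 (2.32-fold) were called higher over all suffixes, but at 1.47-fold and 1.58-fold without suffix 6 they were not. Within suffixes Ccl24 ran from 0.825-fold to 4.73-fold and Pdcd1lg2 from 1.11-fold to 2.49-fold, and neither was called by the median of these folds. Mgl2 was lower in each suffix (0.351-fold, 0.320 to 0.384), and Ccl17 at 0.184-fold in 5 of 6, a call that was lost within 5000 to 20000 UMIs, at a gate of 6 UMIs and without barcodes carrying lymphocyte markers. Retnla, at 0.291-fold pooled, was at 1.49-fold without suffix 5, and in suffix 6 it was higher in Ly6c2-positive barcodes (42.6 against 2.47 CPM), so its direction depended on the library. Clec10a (0.883-fold) and Fn1 (0.973-fold) were nearly level. Rnase2a, at 0.546-fold, was at 0.307-fold without suffix 6 and at 1.92-fold without suffix 5, so its direction also depended on the library.

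Rsad2, an interferon-induced antiviral enzyme, split the macrophage barcodes into 2100 positive and 2550 negative ones and separated the members least. None of 10 was higher (1.75% of genes) and 1 of 10, Mgl2, was lower (0.443% of genes), at 0.428-fold, with each suffix between 0.486-fold and 0.889-fold. Mgl2 was at 0.515-fold and no longer called without suffix 5. Pdcd1lg2 was at 1.77-fold and higher in each suffix, short of the rule. Ccl22 was also higher in each suffix and short of the rule, at 1.47-fold pooled. That pooled fold was below every fold within a suffix (1.497 to 3.42). Ccl22 was called higher by the median of these folds and at a gate of 6 UMIs. Some of these folds rest on few Ccl22 UMIs, such as 8 against 5 in suffix 3 and 19 against 2 in suffix 6. Retnla was at 0.238-fold pooled but at 2.68-fold without suffix 5, where it was called higher. Rnase2a, at 0.473-fold, was called lower without suffix 3 (0.433-fold) or suffix 4 (0.429-fold). It was at 0.272-fold without suffix 6 and at 2.09-fold without suffix 5, not called in either case, so its direction depended on the library.

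Mmp12, the macrophage elastase, was present in 1155 macrophage barcodes. Ccl17 and Mgl2 were higher in them (2 of 10, against 1.12% of genes), at 3.63-fold and 2.03-fold, but neither under each alternative. Ccl17 was not called with Mmp12 at 3 or more UMIs, with the gate at 6 UMIs, without barcodes of another class, within 5000 to 20000 UMIs or without lymphocyte markers. Mgl2 was at 83.2, 36.1, 262, 16.9, 18.97 and 32.6 CPM in Mmp12-positive barcodes of suffixes 3 to 8 and at 41.2, 17.9, 117, 18.05, 5.49 and 10.8 CPM in negative ones, level in suffix 6 and higher in the rest. Without suffix 7 it was at 1.97-fold and without suffix 8 at 1.99-fold, just under the rule. Fn1 was at 1.73-fold and higher in each suffix. Retnla (0.216-fold), Rnase2a (0.288-fold) and Chil3 (0.456-fold) were lower (3 of 10, against 1.07%), and Retnla was at 0.534-fold without suffix 5. Retnla was also not called at a gate of 6 UMIs. Chil3, at 0.345-fold to 1.11-fold within suffixes, was not called by the median of these folds.

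Cd163 was present in 420 macrophage barcodes, 168 of them in suffix 5. Retnla, Rnase2a, Ccl24 and Clec10a were higher in them (4 of 10, against 1.71% of genes), and these 4 were called under each of the 15 alternatives tried. Retnla was at 117, 158, 2629.8, 138, 0 and 7.11 CPM in Cd163-positive barcodes and at 23.1, 6.34, 317, 18.7, 0.328 and 1.96 CPM in negative ones. It was higher in every suffix but 7, where only 23 barcodes were positive. Rnase2a was at 58.4, 18.6, 614, 187, 0 and 19.9 CPM against 5.07, 3.21, 49.2, 28.6, 1.23 and 0.982 CPM. The pooled folds of 20 and 20.1 exceed most folds within suffixes (3.62 to 24.9 and 5.80 to 20.3 where both were detected), since suffix 5 was rich in Cd163-positive barcodes as well as in these genes. Without suffix 5 they were 11.6 and 10.3. Ccl24 (3.80-fold) and Clec10a (3.71-fold, 2.37-fold without suffix 5) were higher in each of the 6 suffixes. Mgl2 (1.61-fold) and Fn1 (1.34-fold) were higher in 3 of 6 suffixes, as was Chil3 (2.54-fold, 1.56-fold without suffix 6). No member was lower (0 of 10, against 3.55%). Without suffix 5, Ccl17 (0.295-fold) and Ccl22 (0.191-fold) were called lower and Pdcd1lg2 (2.21-fold) higher.

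**Figure D4:**
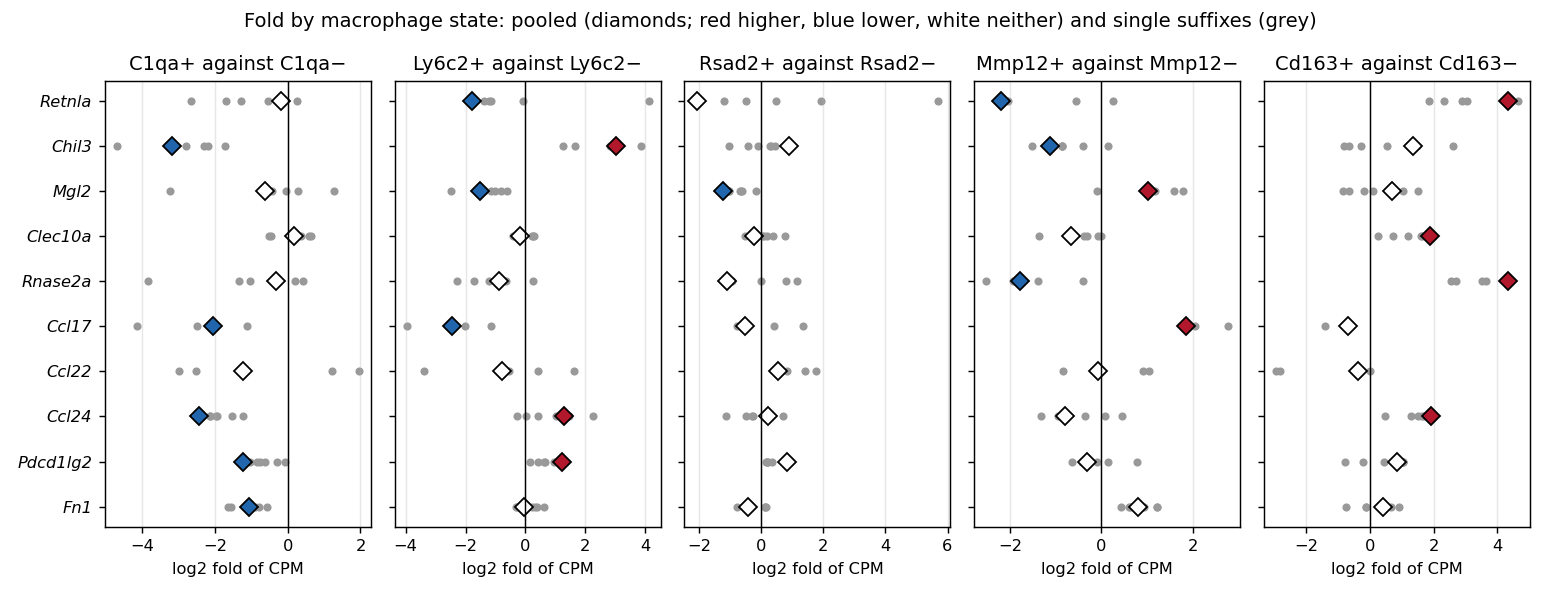
Log2 fold of CPM between macrophage barcodes positive and negative for each state gene (horizontal axes), for each member (vertical axis). Diamonds show the fold over all suffixes, red where called higher, blue where called lower and white otherwise, and grey points single suffixes with at least 20 UMIs of the member and a UMI on both sides. Chil3 is blue for C1qa and red for Ly6c2, the Cd163 panel is red for Retnla, Clec10a, Rnase2a and Ccl24, and no member is red or blue in all panels.

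The states thus drew different members. Chil3 was higher without C1qa and, in a separate split, with Ly6c2. Retnla, Rnase2a and Clec10a were high with Cd163, and Mgl2 was about 2-fold higher with Mmp12. Each state was split by itself, no joint gate was run, and the states overlapped. A C1qa UMI was also in 60.9% of Ly6c2-positive, 74.6% of Rsad2-positive, 82.0% of Mmp12-positive and 81.9% of Cd163-positive barcodes. Ccl24 was called lower with C1qa and higher with Ly6c2 and with Cd163. Its call with Ly6c2 was lost without suffix 6, at a gate of 6 UMIs and by the median of folds within suffixes. No state moved all 10 members in 1 direction.

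Members were then read in other classes, beginning with dendritic barcodes. Of the members, 4 of 10 (Ccl17, Ccl22, Mgl2 and Clec10a) were at least 2-fold higher in dendritic than in macrophage barcodes, against 10.9% of genes. Ccl22 was at 107 CPM (99.8 to 115) against 6.31 CPM, and at 111, 115, 129, 85.0, 52.9 and 120.4 CPM in the dendritic barcodes of suffixes 3 to 8, a narrow spread beside that in macrophages. Ccl17 was at 26.4 CPM against 3.66 CPM, and from 1.04 CPM in suffix 7 to 78.9 CPM in suffix 5, which held 123 of its dendritic UMIs. In suffix 3 it was at 1.88 CPM in dendritic barcodes (1 UMI), below its level in macrophages there. Mgl2 was at 90.1 CPM, 2.35-fold above macrophages, and higher in each of the 6 suffixes. Clec10a was at 68.1 CPM, 2.05-fold above and also higher in each suffix, but at 1.88-fold without suffix 5 and 1.97-fold without suffix 7. Where macrophage barcodes that also passed another class were removed, Ccl22 in macrophages fell from 6.31 to 3.21 CPM. Chil3 (64.6 CPM), Ccl24 (61.9 CPM) and Fn1 (220.0 CPM) lay below their macrophage levels.

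Dendritic barcodes were divided by known subset genes, which may overlap. The 68 barcodes with Ccr7 and Fscn1 UMIs, genes of mature migratory dendritic cells, had Ccl22 at 509 CPM (473 to 548), Ccl17 at 123 CPM (105 to 143) and Pdcd1lg2 at 118 CPM (101 to 137). In the 111 barcodes with a UMI of Siglech, a gene of plasmacytoid cells, Ccl17 and Ccl22 had 1 UMI each, 0.441 CPM. The 71 barcodes with Cd209a, a lectin of type 2 dendritic cells and related monocytes, had Mgl2 at 315 CPM (287 to 346) and Clec10a at 174 CPM (153 to 197). Retnla was at 390.5 CPM in this subset, but 1090 of the 1139 Retnla UMIs of all dendritic barcodes were from suffix 5. The Ccr4 ligands and the lectins thus peaked in different dendritic subsets.

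No member was 2-fold higher in neutrophil barcodes (0 of 10, against 5.27% of genes) or in basophil barcodes (0 of 10, against 11.7%). In neutrophil barcodes, Ccl24 (159.8 against 158 CPM) and Chil3 (96.9 against 104 CPM) were close to their macrophage levels, and these barcodes also held macrophage markers, at 5285 CPM over all 8 markers with Csf1r and Adgre1 included. In basophil barcodes Retnla, Chil3, Clec10a, Rnase2a and Ccl24 were at 0.5-fold of macrophages or less. The share of all genes this low was not counted, so these levels are not read as a trait of the members. Pdcd1lg2 was at 61.2 CPM in basophil barcodes against 42.4 CPM in macrophages. Without suffix 5, Retnla in basophil barcodes was 2.77-fold above macrophages, 70 of its 75 UMIs there being from suffix 4, without suffix 6 Pdcd1lg2 was at 2.01-fold, and without suffix 4 Ccl22 was at 2.66-fold, 13 of its 14 UMIs there being from suffix 5. Basophil barcodes also carried the same 8 macrophage markers at 2235 CPM, against 6424 CPM in macrophage barcodes, and NK markers at 4942 CPM. The part of either in these levels was not tested.

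Pdcd1lg2 was also found in NK and T barcodes. In NK barcodes it was at 80.1, 99.0, 59.8, 89.5, 87.8 and 81.4 CPM in suffixes 3 to 8, and in T barcodes at 51.0, 71.3, 79.6, 55.8, 66.5 and 65.1 CPM. These levels exceeded those in macrophage barcodes of the same suffix in 5 of 6 suffixes, suffix 6 being the exception in both classes. In suffix 5 they rest on 5 NK and 7 T UMIs, and the intervals (19.4 to 140 and 32.0 to 164 CPM) span the macrophage level. In suffix 3 the T interval (25.5 to 91.2 CPM) overlapped that of macrophages (24.5 to 32.9 CPM). NK barcodes hold no Csf1r or Adgre1 UMI by definition, and the other members there ranged from 0 CPM for Ccl22 to 4.04 CPM for Clec10a and 19.5 CPM for Fn1. T barcodes had Retnla at 50.2 CPM, with 134 of 144 UMIs from suffix 4, although only 0.699% of T barcodes had any.

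**Figure D5:**
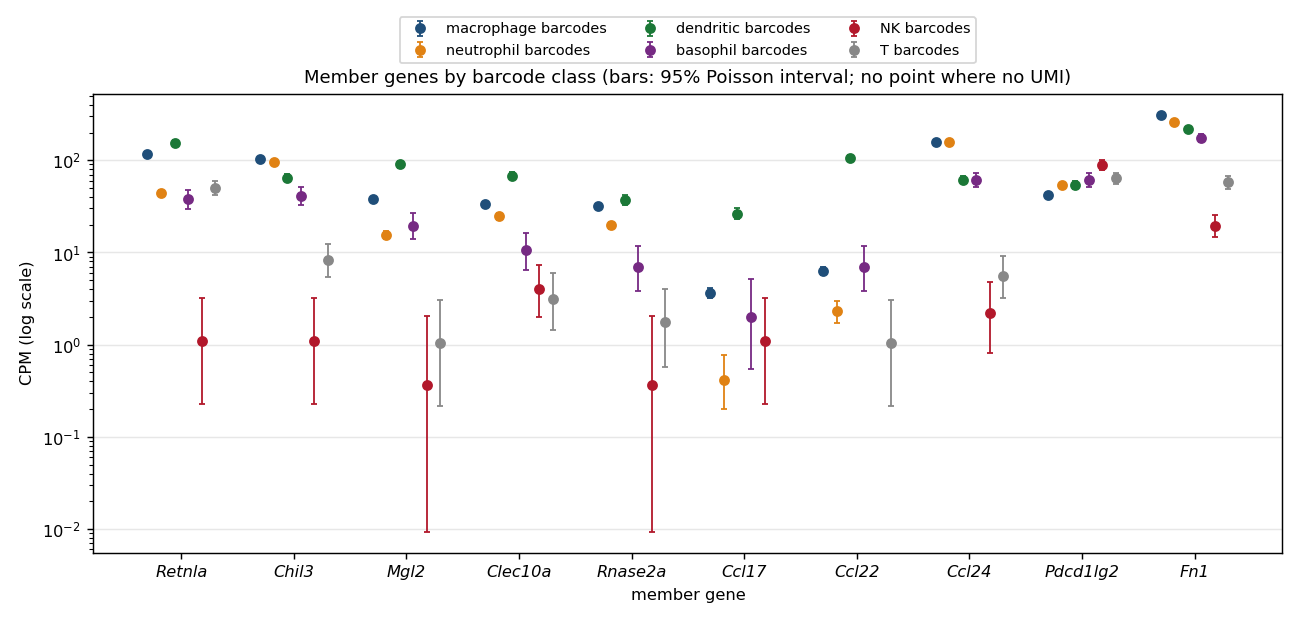
CPM (vertical axis, log scale) of each member (horizontal axis) in 6 classes of barcodes, pooled over suffixes, with exact Poisson intervals at 95% and no point where no UMI was found. Ccl17 and Ccl22 are highest in dendritic barcodes, and Pdcd1lg2 is the only member whose highest point is the NK class.

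The rest of the IL-4 and Stat6 pathway was read from a list of 39 genes, of which all were measured and 35 reached 20 macrophage UMIs. The ligands were nearly absent from macrophage barcodes, where Il4 was at 0.250 CPM and Il13 at 0.360 CPM. They were at 48.6 and 59.2 CPM in basophil barcodes and at 19.9 and 14.6 CPM in T barcodes. Il4 was also at 6.66 CPM in dendritic barcodes. The receptor chain Il4ra ranged from 88.2 CPM in suffix 7 to 225 CPM in suffix 6, and Il13ra1 from 34.9 to 51.2 CPM. Of the kinases, Jak1 was at 156 to 192 CPM over suffixes, Tyk2 at 22.3 to 34.3 CPM and Jak3 at 12.6 to 20.8 CPM. Jak2 ranged more widely, from 43.4 CPM in suffix 3 to 104 CPM in suffix 6. By the rule used for the members, 5 of the 35 had a top suffix at least 2-fold above the next, against 2.78% of all genes. Among these were the cationic amino acid transporter Slc7a2 (160.5 CPM in suffix 6), Cd209a (36.1 CPM in suffix 5), Ear2 (28.7 CPM in suffix 5) and Retnlg (25.2 CPM in suffix 3), a neutrophil gene.

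Across states, 7 of the 35 pathway genes were lower in C1qa-positive barcodes and 1 was higher, against 2.18% and 9.75% of all genes tested. Slc7a2 (0.341-fold), the feedback inhibitor Socs1 (0.478-fold), Cish (0.496-fold), the factor Irf4 (0.438-fold), Matk (0.409-fold) and Ear2 (0.347-fold) were among the lower ones, and the sterol hydroxylase Ch25h was 5.16-fold higher. Socs1 (2.02-fold) and Retnlg (3.35-fold) were higher in Ly6c2-positive barcodes, and Retnlg (3.70-fold) in Rsad2-positive ones. In Cd163-positive barcodes, Il4ra (2.41-fold, 264 against 109.5 CPM) and the mannose receptor Mrc1 (2.58-fold) were higher in each suffix and Pparg (0.332-fold) lower. Ear2 and Cd163 were lower with Mmp12, at 0.373-fold and 0.321-fold, as were Retnla and Rnase2a.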

How the data were processed

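CD45+ cells of 6 CT26 tumors were profiled with a 3′ droplet kit, and the authors deposited raw UMI counts in a single matrix. The submitters' processing notes name Cell Ranger 1.2, Seurat 3.1.5, R 4.0.1 and the build mm10. The filter on barcodes is not given in the sources used here. Counts were summed over the barcodes of a gate and divided by their total UMIs, giving CPM. Intervals are exact Poisson (levels) or Clopper-Pearson (shares) at 95%, for counting error only, and a count of 0 was read against a floor of 3 counts. Total UMIs in macrophage barcodes ranged from 6499792 to 18719903 per suffix. Suffixes could not be assigned to tumors, so edgeR was not run and no p-value is given. A state fold was called at 2-fold or more with the same direction in at least 5 of 6 suffixes among genes with 20 UMIs. Co-detection used barcodes thinned to 1000 UMIs, which left out 2 macrophage barcodes. No doublets were removed. Named genes are the members, pathway and marker genes where their lists are described, paralogs of members, and the first genes by co-detection ratio with Retnla and Chil3. One pathway gene enters the counts of its list but is not reported here. Members and lists were chosen with earlier results of these data known. Promoters were taken from RefSeq and gene positions from the GENCODE annotation of GRCm38. Scripts ran in Python 3.11.15 with numpy 2.4.6 and scipy 1.17.1 and were tested on simulated data. Alternatives were other thresholds, gates, depths and random draws, and each suffix left out. One of them, which leaves out macrophage barcodes with a UMI of any of 13 lymphocyte markers, was chosen after seeing the data.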

Additional observations from a re-analysis of the deposited data

Results flagged for a closer look

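In 7 of the 10 members, the highest of the 6 suffixes lay unusually far from the others for a group of this size. The measure is the gap from the highest to the next suffix, divided by the whole range, on the CPM of macrophage barcodes. It was 0.961 for Retnla (820.1 against 32.7 CPM), 0.834 for Pdcd1lg2 (125 against 38.7 CPM), 0.812 for Fn1 (676 against 307 CPM), 0.731 for Rnase2a (172 against 47.1 CPM), 0.683 for Mgl2 (153 against 54.9 CPM), 0.674 for Clec10a (83.1 against 39.8 CPM) and 0.662 for Chil3 (362 against 130.5 CPM). The library was suffix 5 for Retnla, Fn1, Rnase2a, Mgl2 and Clec10a and suffix 6 for Pdcd1lg2 and Chil3. By the same measure the highest suffix stood apart for 9.07% of 13307 genes tested. A nominal rate of about 1 in 20 holds for normally distributed values with either end counted, and only the highest end was counted here. The 9.07% of genes is therefore the background for these data. Genes that share cells are not independent. The suffixes mix 2 treatments in an unknown way, so a gap may lie between or within treatments, which cannot be told apart.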

How the results depend on the processing

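No paired analysis was possible because the barcode suffixes carry neither treatment nor replicate number. For the same reason the treatment comparison was not run under any alternative (replicate block, DESeq2, no filter, replicates left out). Of 185 alternative counts of members or pairs, 155 were within 1.5 times the reported one. With the macrophage gate at 6 UMIs, the members lower in C1qa-positive barcodes numbered 3 rather than 5, those lower with Ly6c2 1 rather than 3, those higher with Rsad2 1 rather than 0, those higher with Mmp12 1 rather than 2, and those lower with Cd163 2 rather than 0. With a state set at 3 or more UMIs, the counts were 0 for lower with Rsad2 (from 1), 1 for higher with Mmp12 and 2 for lower with Cd163. Without barcodes of another class they were 1 for higher with Mmp12 and 2 for lower with Cd163. Within 5000 to 20000 UMIs they were 3 for lower with C1qa, 2 for lower with Rsad2 and 1 for higher with Mmp12. The median of folds within suffixes gave 1 higher with Ly6c2 (from 3), 1 higher and 0 lower with Rsad2, and 2 lower with Cd163. A 1.5-fold threshold gave 1 higher with Rsad2 and 1 lower with Cd163. Without barcodes carrying lymphocyte markers, 3 were lower with C1qa and 1 higher with Mmp12. Taking Cd163 status into the expected number gave 9 pairs rather than 14. With each suffix left out in turn, the counts ranged from 1 to 3 for higher with Ly6c2, 0 to 1 for higher and 0 to 2 for lower with Rsad2, 1 to 2 for higher with Mmp12 and 0 to 2 for lower with Cd163. Beyond what the construction of an alternative shows (fewer barcodes or suffixes), the cause was not tested. Ccl17 and Ccl22 rest on 264 and 455 macrophage UMIs, and depth limits what can be said of their pairs.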
